A study of Quercus ilex with 12 samples.

Results

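The 100 most stably expressed leaf contigs of *Quercus ilex* (holm oak) were chosen from 47568 assembled contigs by their steady level across 12 RNA-seq libraries. A contig was eligible with at least 10 TPM (a contig's share of the transcripts in a library, scaled for contig length to the same sum in every library) in each of the 12 libraries, unless it was among the 100 contigs of highest mean TPM. Of the 7082 eligible contigs, the 100 with the lowest coefficient of variation (CV, the SD divided by the mean) of TPM were taken. The choice used every TPM value, so levels, spreads and group differences of these contigs are a description and carry no test. The libraries came from leaves of seedlings 6 months old, grown from germinated acorns, with 3 biological replicates in each of 4 groups. Well-watered control seedlings and seedlings under drought by irrigation withdrawal were each sampled at a first and a second time. The sample labels place these at 20 and 25 days and the series text at 17 and 24 days. The labels call the replicates biological without saying whether each was 1 seedling or a pool. A p-value here sets a group difference against the spread between these libraries. Whether that is a spread between seedlings or between pools is not known.

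Cells keep some transcripts at a nearly constant level because their products are needed under most conditions, for example those that build ribosomes and the cytoskeleton, degrade proteins or carry out basic metabolism. Such transcripts serve as internal references when other genes are compared between samples, and in trees under drought a reference has to hold its level while photosynthesis, water transport and hormone responses change. The contigs carry identifiers without gene names in the files used here. The function of the stable contigs and the leaf identity of the libraries were therefore not analysed here, and contig sequences were not used here. In bulk leaf RNA, fewer cells of a type and less RNA per cell cannot be told apart, and a TPM is a share of the sequenced RNA, not an amount per leaf.

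Each library held 11239487 to 33384307 estimated counts in all. In 3 libraries the best correlation of log2 CPM (counts scaled to the same total in every library) with a library of another group exceeded that within the own group by 0.028 to 0.049: replicate 2 of the controls at both samplings and replicate 3 of the second-sampling drought group. In the other 9 libraries this difference was 0.0065 or less. The labels were kept, and results that rest on these 3 libraries are also given without them.

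The stable contigs were moderately expressed. Their mean TPM ran from 12.2 to 705, with a median of 27.9 against 48.2 in the other 6982 eligible contigs. It was below 20 TPM in 30 of them, between 20 and 50 in 50, and at or above 50 in 20. Together they made up 4116 to 4818 TPM per library, less than 0.5% of the total. Their CV ran from 7.24% to 13.3% (median 11.9%), whereas the other eligible contigs had 13.3% to 204% (median 34.6%). The highest library of a stable contig lay 1.28 to 1.72 times above its lowest, with a median of 1.47; among the others this ratio had a median of 3.18 and reached 334. The ranking had no gap at its end: the last contig taken, contig-83000005, had a CV of 13.27% and the first one left out, contig-221000019, had 13.29%.

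**Figure D1:**
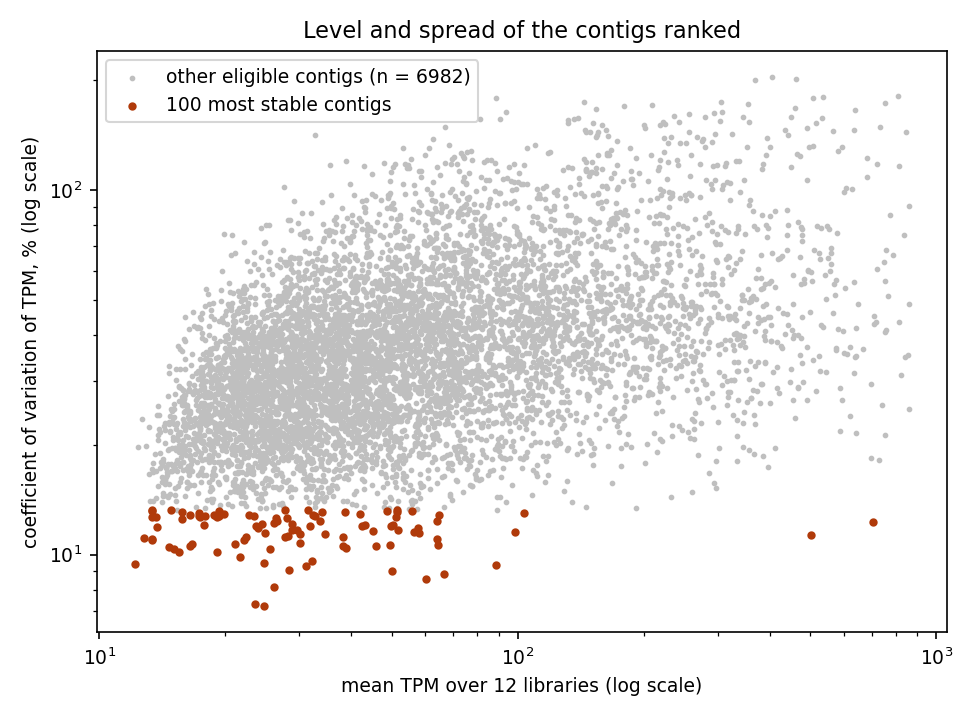
Mean TPM over 12 libraries (x axis, log scale) against the CV of TPM in percent (y axis, log scale) for the 7082 eligible contigs. Red points are the 100 stable contigs, which fill the lower edge up to 13.3% and lie mostly at low to moderate levels, and grey points are the other 6982.

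The steadiest contig was contig-82000022 (2215 bases). At the first sampling its TPM was 25.4, 24.8 and 26.8 in watered leaves and 23.5, 24.6 and 26.2 in drought leaves. At the second it was 21.4, 24.1 and 23.2 in watered leaves and 26.2, 27.3 and 22.8 in drought leaves. All 12 values lay within 21.4 to 27.3 TPM, and the ranges of control and drought overlapped at both samplings. The next was contig-51000011 (2336 bases), with first-sampling means of 23.2 ± 1.14 TPM (SD, n = 3) in watered and 24.9 ± 1.37 TPM in drought leaves. The second-sampling means were 23.0 ± 1.73 and 22.9 ± 2.48 TPM. Its 12 values, from 20.3 to 26.1 TPM, overlapped between control and drought at both samplings. The third, contig-657000013 (1439 bases), ranged from 21.8 to 29.0 TPM with a median of 26.7. Its lowest and its highest value both came from the second sampling, in drought replicate 2 and control replicate 2.

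Steadiness at a high level was rare. Only 3 of the 100 had a mean of 100 TPM or more. The most abundant, contig-1070000008 (649 bases), had 841, 687 and 714 TPM in watered leaves and 650, 624 and 769 TPM in drought leaves of the first sampling. In the second it had 683, 774 and 670 TPM in watered leaves and 808, 719 and 523 TPM in drought leaves. Its lowest library was drought replicate 3 of the second sampling, 1 of the 3 that stood apart, and its drought and control values overlapped at both samplings. The second most abundant, contig-959000006 (1060 bases), had 540 ± 68.8 TPM (SD, n = 3) in watered and 449 ± 10.6 TPM in drought leaves of the first sampling, where the drought libraries (439 to 460 TPM) all lay below the controls (472 to 610 TPM). At the second sampling its groups overlapped, with 485 ± 37.0 and 535 ± 54.9 TPM. The third, contig-812000023 (872 bases), ranged from 77.7 TPM in drought replicate 1 to 125 TPM in control replicate 3, both of the first sampling. There its drought values (77.7, 87.0 and 102 TPM) all lay below its controls (107, 103 and 125 TPM), whereas at the second sampling the groups overlapped.

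**Figure D2:**
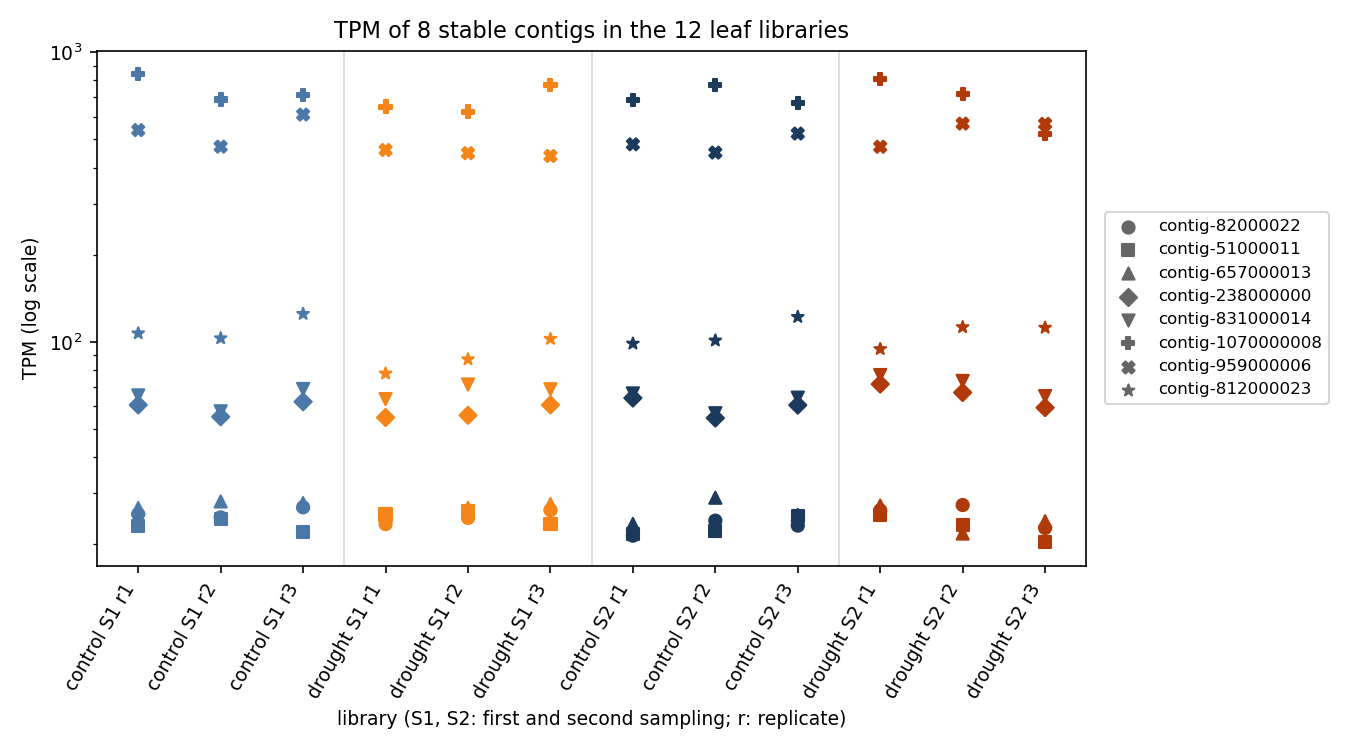
TPM (y axis, log scale) of the 5 contigs of lowest CV and the 3 of highest mean TPM among the stable contigs in the 12 libraries (x axis), 1 point per library, with colours for the 4 groups. contig-82000022 spans 21.4 to 27.3 TPM and contig-1070000008 spans 523 to 841 TPM, and the first-sampling drought values of contig-959000006 and contig-812000023 lie below the controls of that sampling.

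The stable contigs were long. Length was not part of the rule, although a longer contig collects more reads at the same TPM. Their median length was 1633 bases (571 to 5993) against 1085 bases (200 to 9747) in the other eligible contigs, and 76 of the 100 exceeded the median of all eligible contigs. Of the 4 length quartiles of the eligible contigs, the shortest (200 to 688 bases) held 4 stable contigs and the longest (1603 bases and more) held 52. The difference was also found at matched levels: among contigs in the lowest quartile of mean TPM, which held 53 of the 100, the median length was 1907 bases in the stable contigs and 1412 bases in the others, and in the next quartile, with 23 of the 100, it was 1628 and 1170 bases. Over all eligible contigs the CV fell weakly with length (Spearman's rho -0.23 across 7082 contigs, which share the same libraries and are not replicates). The longest member, contig-135000008 with 5993 bases, had 12.4 to 18.4 TPM, and the shortest, contig-3560000009 with 571 bases, had 44.8 to 69.7 TPM.

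Counting error made up little of the remaining spread. A stable contig had 171 to 16189 estimated counts in a library, with a median of 1094. The CV that sampling of reads alone would give had a median of 3.08% (0.955% to 5.84%), which is a median of 6.98% of the observed squared CV and at most 27.0%. In the other eligible contigs the counting CV had a nearly equal median of 3.28%, which is a median of 0.928% of their observed squared CV. In the lowest quartile of mean TPM it was 3.72% in the stable contigs and 4.05% in the others, beside the longer length of the stable ones there; the part of counting error in the length difference was not tested. The counting CV leaves out the division of reads between similar contigs, which gives estimated counts that are not whole. These were whole (within 0.005) in a median of 1 of the 12 libraries for the stable contigs (0 to 9) and 0 for the others, so the levels rest in part on divided reads.

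A CV of 3 values tends to lie below a CV of 12. Those within groups and over all libraries are therefore not directly comparable. Within the groups the stable contigs had slightly lower CVs than over all libraries. Their median CV among the 3 replicates was 9.61% in watered and 9.21% in drought leaves of the first sampling, and 10.3% and 9.89% in those of the second, against 23.1%, 18.5%, 29.9% and 24.4% in the other eligible contigs. The share of the sum of squares that lay between the 4 groups had a median of 30.4% in the stable contigs (1.93% to 80.0%) and 47.8% in the others. If the libraries were exchangeable between groups, 4 groups of 3 would hold a mean share of 27.3%. That is a mean, so it is not directly comparable with these medians. The rule took contigs of low spread over these same libraries, so nothing is read from their lower share. The share exceeded 50% in 19 of the 100 and in 46.0% of the others. Taking the mean within-group variance in place of the variance over the 12 libraries kept 40 of the 100. The contig of lowest mean drought effect was contig-389000003 (edgeR log2 fold change -0.33, the mean of -0.23 and -0.42 at the samplings), and 64.4% of its sum of squares lay between groups. Its first-sampling TPM was 108, 103 and 116 in watered and 80.4, 101 and 80.2 in drought leaves. Its second-sampling TPM was 108, 103 and 102 in watered and 99.0, 84.4 and 94.2 in drought leaves. All 6 drought libraries of this contig lay below all 6 controls, although its CV was 11.6%. The contig of highest mean drought effect was contig-215000012 (0.19, the mean of 0.33 and 0.05). Its TPM at the second sampling was 19.0, 23.1 and 21.7 in drought leaves, above the 16.5 to 18.5 of the controls. Its first-sampling values overlapped (18.6 to 23.8 in drought and 17.9 to 20.2 TPM in watered leaves). Its fold change was thus the smaller at the sampling where its TPM separated, since the fit scales libraries by TMM and not by TPM.

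The stable contigs shifted together in some libraries, and so did the other eligible contigs. As a percentage of its own mean over the 12 libraries, the median stable contig stood highest, at 107%, in control replicate 1 and lowest, at 93.1%, in drought replicate 1, both of the first sampling. In the other eligible contigs this median ran from 87.3% in that same drought library to 102% in control replicate 3 of the first sampling. Control replicate 2 of the second sampling was the lowest library for 22 of the 100 and the highest for 2, whereas control replicate 1 of the first sampling was the lowest for 1 and the highest for 17. The libraries most often lowest and most often highest were thus both controls, whereas by the median a control stood highest and a drought library lowest. In every library 90% of the stable contigs lay within 78.8% to 123% of their own means.

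**Figure D3:**
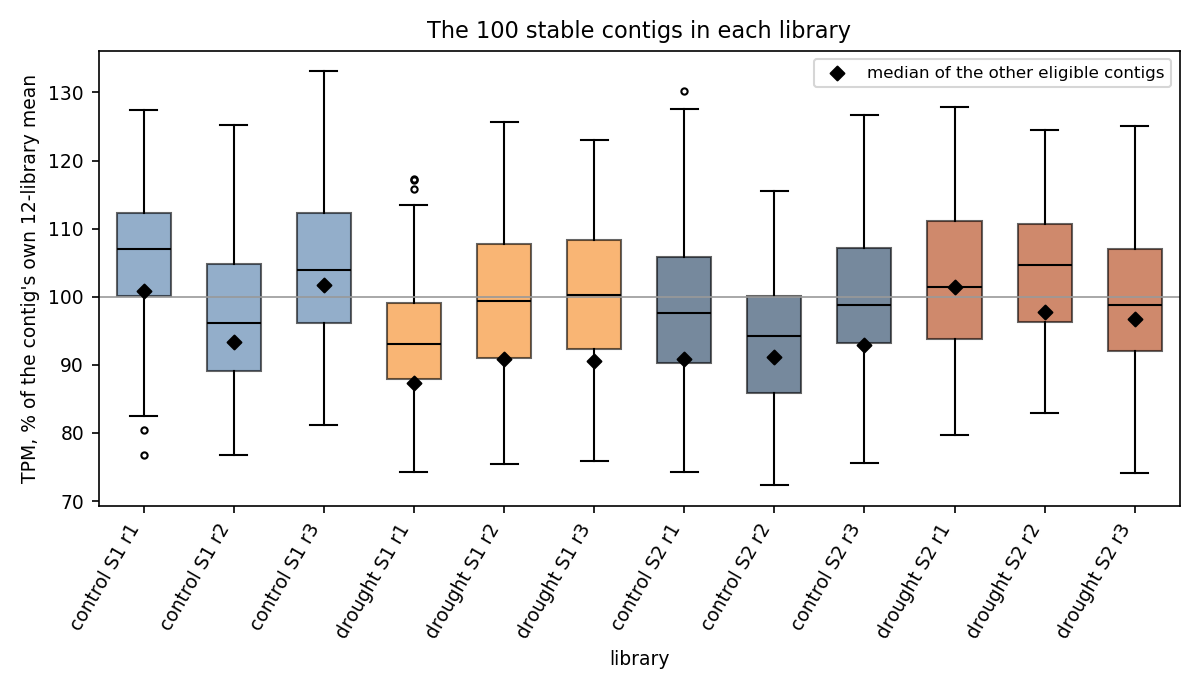
TPM of the 100 stable contigs in each library as a percentage of each contig's mean over the 12 libraries (y axis), by library (x axis, coloured by group). Boxes show quartiles with the median as a line, whiskers reach the farthest value within 1.5 times the box height, circles lie beyond them, and black diamonds are the medians of the other eligible contigs. Library medians of the stable contigs run from 93.1% to 107%.

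Ratios between contigs of the same library do not depend on how libraries are scaled. Over the 4950 pairs of stable contigs the SD of the log2 ratio across the 12 libraries had a median of 0.22 (0.08 to 0.37), against 0.77 over all pairs of the other eligible contigs. The rule took contigs of low TPM spread in these same libraries, so this contrast follows from the choice and is no separate support. The pair of lowest SD was contig-238000000 and contig-831000014, which also ranked 4 and 5 by CV. Their first-sampling ratio was 0.93, 0.96 and 0.90 in watered and 0.86, 0.78 and 0.88 in drought leaves. Their second-sampling ratio was 0.96, 0.96 and 0.94 in watered and 0.93, 0.91 and 0.91 in drought leaves. The ratio stayed at 0.91 ± 0.051 (SD, n = 12) while contig-238000000 itself moved between 54.6 and 71.5 TPM. At each sampling all 3 drought ratios lay below all 3 control ratios, an ordering noticed after the values were seen. The steadiest contig by its mean SD of log2 ratio to the other 99 members was again contig-82000022, at 0.18.

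In tests of the 5 group comparisons the stable contigs were hardly called, as the rule fixes. All 100 passed the filter on low counts. With edgeR's quasi-likelihood test at an adjusted p under 0.05, 0 of the 100 were called for the first-sampling drought effect (0% of all 33602 contigs tested), 0 for that of the second (0.00893%) and 0 for their mean (3.6%). For the second against the first sampling, 0 were called in the controls (0.0208%) and 0 under drought (0.00298%). At an unadjusted p under 0.05, the numbers were 0 (13.2% of all contigs), 3 (22.6%), 0 (25.8%), 2 (17%) and 0 (6.29%) in the same order. DESeq2 called 0 (4.6%), 2 (14.7%), 0 (17.8%), 0 (8.78%) and 0 (0.996%) of the stable contigs, and limma-trend on log2(TPM + 1) called 0 in each comparison (0.0744%, 0.682%, 4.73%, 0.125% and 0.0208%). The 3 replicates of both groups did not overlap in TPM for 15 of the 100 between drought and control at the first sampling (22.8% of all contigs), with 3 higher and 12 lower under drought. At the second sampling this held for 12 (24.5%), 9 higher and 3 lower. In 2 contigs (2.17%), contig-389000003 and contig-111000002, no drought value reached the lowest of the 6 controls; contig-111000002 is named here after its values were seen. Between the samplings the groups did not overlap in 12 contigs in the controls (22.4%) and 13 under drought (13.3%). As the rule used these libraries, nothing is read from these shares.

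In several comparisons the sign of the remaining median difference depended on the scaling of the libraries. On log2(value + 1) a scaling factor moves contigs of high value in a library by nearly the same amount, and contigs of low value by less. In contigs of flat TPM the changes of sign and the counts below therefore follow largely from the factors. They are not read as a property of these contigs. Between the samplings in the controls, the median stable contig was 0.09 lower at the second sampling on log2(TPM + 1), with 26 of 100 above 0. On log2(CPM + 1) with TMM factors, which scale libraries by a trimmed mean of contig ratios, it was 0.24 higher, with 99 of 100 above 0. The same change of scale moved the median of all 33602 contigs tested from -0.31 to -0.09, and relative to that median the stable contigs stood 0.22 higher on TPM and 0.33 higher with TMM. Most of this gap was shared by the eligible contigs as a whole, whose medians were -0.13 on TPM and 0.19 with TMM. Without the 3 libraries that stood apart, the medians of the stable contigs were -0.11 on TPM and 0.23 with TMM. For drought against control at the second sampling the sign turned as well: the median was 0.07 on TPM, with 67 of 100 above 0, and -0.17 with TMM, with 9 above 0 (all contigs: 0.18 and 0.03; without the 3 libraries, stable contigs 0.07 and -0.21). Relative to all contigs the stable ones lay lower on both scales, by -0.11 and -0.20. The eligible contigs as a whole also lay lower, with medians of 0.10 on TPM and -0.14 with TMM. The drought effect of the first sampling changed sign too, from -0.07 on TPM to 0.03 with TMM, and without the 3 libraries it was -0.10 and -0.05. For the mean drought effect it was 0.00 on TPM (51 of 100 above 0) and -0.07 with TMM (21 above 0), and without the 3 libraries -0.02 (41 above 0) and -0.14 (9 above 0). The change with time under drought was 0.05 and 0.04, and 0.08 and 0.09 without the 3 libraries.

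**Figure D4:**
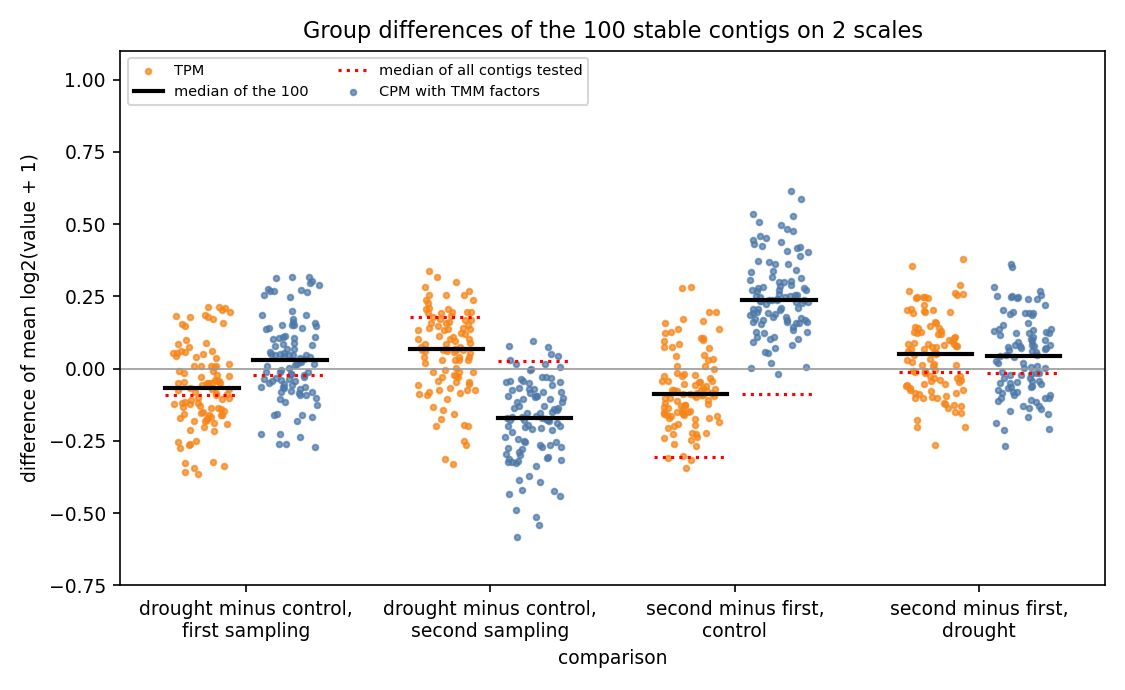
Difference of the mean log2(value + 1) between groups (y axis) for each of the 100 stable contigs in 4 comparisons (x axis), on TPM (orange) and on CPM with TMM factors (blue). Black bars are medians of the 100 and red dotted bars medians of the 33602 contigs tested. In the controls between samplings the black bar moves from -0.09 on TPM to 0.24 with TMM.

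The TMM factors of control replicates 1 and 3 of the second sampling were 0.823 and 0.876, the lowest of the 12 (the highest was 1.18, in control replicate 2 of the first sampling). Eligible contigs took 65.2% and 65.7% of all TPM in these libraries, the highest shares, against 54.3% to 64.0% in the other 10. The part of this composition in the factors was not tested. On CPM with TMM factors the stable contigs had a median CV of 15.7% and at most 24.5%. Of the 100, 93 were within the lowest 10% of eligible contigs on that scale, but only 36 were among its own 100 lowest. The 100 of lowest CV with TMM had 7.45% to 14.1% there and a median of 14.4% on TPM. They were also long (median 1900 bases) and of moderate level (median of mean TPM 24.8). With RLE size factors 23 of the 100 were shared. Thus 22 of the 100 were in the list under TPM, FPKM, TMM and RLE scaling and by the SD of log2 TPM, and 20 of these were also kept when any one library was left out. Of the contigs named above, contig-82000022, contig-657000013 and contig-135000008 belong to these 20.

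Libraries that took no part in the choice showed how far steadiness carried over. When the rule was applied to 11 libraries and the chosen 100 were looked at in the remaining one, their median distance from their 11-library mean was 1.12-fold to 1.20-fold over the 12 libraries, against 1.23-fold to 1.69-fold in the other eligible contigs. It was smaller for the chosen contigs in 12 of 12 libraries. The chosen contigs lay within 1.5-fold of their mean in 85 to 99 of 100 cases, and the others in 40.3% to 78.7%. The weakest result was control replicate 1 of the second sampling, with 85 of 100 chosen contigs and 40.3% of the others within 1.5-fold. The largest distance of a chosen contig was 2.28-fold, in that same library. The lists chosen on 11 libraries overlap with each other, so the 12 values are not independent.

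Steadiness in watered leaves went with a lower, but no longer very low, spread in drought leaves. The 100 contigs chosen on the 6 control libraries had a median CV of 8.33% there and 17.6% over the 6 drought libraries (6.32% to 48.0%), against 27.0% in the other contigs eligible in the controls. Of the 100, 87 lay below the median of the drought CVs and 21 were in the lowest 10%. This last count rested on drought replicate 3 of the second sampling. Without that library it was 11, and without all 3 libraries that stood apart it was 10, which is the share of all eligible contigs. The median CVs were then 16.2% against 22.7%, and 18.7% against 23.0%, with 79 and 68 of the 100 below the median. Chosen on the 6 drought libraries, the 100 contigs rose from a median CV of 6.58% to 26.2% over the controls (others 37.3%), with 77 below the median and 21 in the lowest 10% (22 without the 3 libraries). The lists shared 3 contigs, which is 3% of each, and were taken from 7948 and 9379 eligible contigs. Of the 100 chosen on the controls, 93 had at least 10 TPM in every drought library. Of those chosen under drought, 85 had it in every control library. Across the 7948 contigs eligible in the controls, the CVs of control and drought libraries had a Spearman's rho of 0.51; level and length are shared by both measures.

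**Figure D5:**
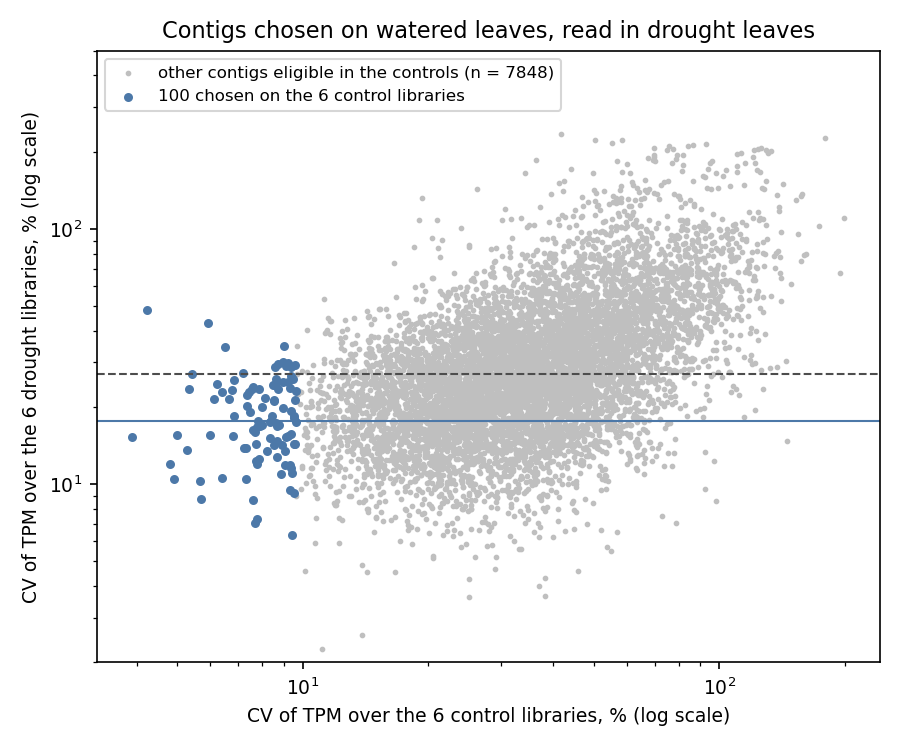
CV of TPM over the 6 control libraries (x axis, log scale) against the CV over the 6 drought libraries (y axis, log scale) for contigs eligible in the controls. Blue points are the 100 chosen on the controls and grey points the others; lines mark the median drought CV, solid for the chosen contigs (17.6%) and dashed for the others (27.0%).

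The drought comparison of one sampling was then run on contigs chosen at the other, so that choice and test used different libraries. Of the 100 contigs chosen on the first sampling, 0 were called at the second by edgeR in a fit of its 6 libraries (0.00347% of 28844 contigs tested), and 6 fell under 0.05 before adjustment (18%). DESeq2 called 1 (9.31%), with 9 before adjustment (22.9%), and limma-trend on log2(TPM + 1) called 0 (0.0381%), with 12 before adjustment (20.7%). Their median absolute log2 fold change in the edgeR fit was 0.41, against 0.57 in all contigs eligible at the first sampling, and 59 of 100 stayed below 0.5 (44.6% of the eligible). Of the 100 chosen on the second sampling, 0 were called at the first by edgeR (0%), and 4 fell under 0.05 before adjustment (16.1%). DESeq2 called 1 (8.36%), with 3 before adjustment (19.8%), and limma-trend called 0 (0%), with 11 before adjustment (17%). Their median absolute log2 fold change was 0.20 against 0.43, and 88 of 100 stayed below 0.5 (56.0%). As edgeR called almost no contig in either fit, the 0 says little, and the sizes of change and the unadjusted counts describe these lists better. In both directions contigs picked as steady without the tested libraries changed less than the eligible contigs as a whole, yet the largest change among them was 1.52 on the log2 scale for those tested in the second sampling and 1.05 for those tested in the first. The lists of the samplings shared 4 contigs, which is 4% of each, and were taken from 9275 and 7722 eligible contigs. Of the 100 chosen on the first sampling, 78 had at least 10 TPM in every library of the second. Of those chosen on the second, 95 had it in every library of the first.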

How the data were processed

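Leaf mRNA libraries were made with a stranded kit, 1 file per library. Tools listed in the processing notes of the submitters are cutadapt 1.9, for trimming, and RSEM, for estimating counts. The sources used here state no assembler, aligner or RSEM version. Estimated counts, as deposited by the authors, are reads per contig, with reads matching several contigs divided among them. The deposited TPM values are scaled for effective length and to a fixed sum. The deposited FPKM values are scaled for length and reads and served as an alternative. Differences in fragment length and read sharing enter all of these values.

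Estimated counts were rounded and compared with edgeR 4.0.16 (R 4.3.3), which used TMM factors, the default low-count filter by group, 1 fit of 4 groups, and Benjamini-Hochberg adjustment over all contigs. DESeq2 1.42.0 and limma 3.58.1 (pseudocounts 1 and 0.1) were alternatives, beside other scalings, filters, a replicate block and leaving out each library. The fit and the choice were tested on simulated data. Replicates differed beyond sampling noise (lowest chi-square per degree of freedom 62.8). The members, lists and tests were chosen with earlier results of these data known. The contigs named were the 5 of lowest CV, the 3 of highest mean TPM, the longest, the shortest, those of highest and lowest mean drought effect, the pair of steadiest ratio, and those on both sides of the limit.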

Additional observations from a re-analysis of the deposited data

How the results depend on the processing

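Of the 100 stable contigs, 36 were kept with TMM and 23 with RLE scaling, 27 with the median absolute deviation over the median, 60 with a minimum of 20 TPM (the other 40 fell below it in some library), 40 with the mean within-group variance and 57 without the 3 libraries that stood apart. Leaving out any one library kept 69 to 87. FPKM kept 80, the SD of log2 TPM 91, a minimum of 5 TPM 84, any TPM above 0 kept 78, and with the most abundant contigs not left out the list was the same 100. For these changes the cause was not tested.

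The number of stable contigs called was 0 in all 5 comparisons under the 21 alternatives run for each, except under DESeq2. That tool called 2 for drought at the second sampling (14.7% of all contigs). With the replicate block the number of stable contigs called was 0 in all 5, beside 0%, 0%, 3.44%, 0.00298% and 0% of all contigs in the order used above. In both tests across samplings the block gave 0, beside 0% of all contigs. Apart from the mean drought effect, almost no contig was called with the block, so these 0 say little. Equal replicate numbers were taken as names only, without pairing: correlations of deviations between same-numbered libraries ran from -0.11 to 0.21, with 6 of 18 above 0.1. In the tests across samplings DESeq2 called 1 contig in each direction (9.31% and 8.36% of all contigs tested) and the other alternatives 0. For contigs chosen on the first sampling, the highest share of all contigs beside such a 0 was 3.1%, without control replicate 2 of the second. For those chosen on the second it was 0.993%, without control replicate 2 of the first. The count over all contigs for the mean drought effect, 1209 with the settings reported, was 817 with size factors taken from the stable contigs, 743 with no filter, 2302 with at least 10 counts in every library, 5637 with DESeq2, 6798 without the 3 libraries, 1157 with the block, and 0 to 4744 without any one library (4744 without control replicate 2 of the second sampling, 2156 without drought replicate 3 of the second, and 0 without control replicate 3 of the first or control replicate 1 of the second). The numbers over all contigs in the other comparisons, 0 to 7 as reported, reached 4674 without the 3 libraries, 4387 with DESeq2 and 3961 on leaving out second-sampling control replicate 2. Contigs chosen on the controls and in the lowest 10% of drought CVs, 21 as reported, numbered 10 without the 3 libraries (added after the data were seen), 11 to 26 without any one library (11 without drought replicate 3 of the second sampling), 30 with TMM and 29 with a minimum of 20 TPM. The reverse count of 21 ran from 15 to 27 without any one library.

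At the depth and level of the members, counting error gave a median CV of 3.08%. That was a median of 6.98% and at most 27.0% of their squared CV. The division of reads between similar contigs is not included in it.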

Other observations

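High abundance and steadiness rarely went together. Of the 100 contigs of highest mean TPM, which were kept out of the ranking, 96 had at least 10 TPM in every library. Their CV had a median of 54.2% and ran from 19.2% to 185%, and 0 of them would have entered the 100 stable contigs: the steadiest would have ranked 727. Among the eligible contigs the median CV rose over the quartiles of mean TPM, from 26.1% in the lowest (12.2 to 28.7 TPM) through 32.3% and 38.2% to 45.1% in the highest (91.7 to 859 TPM), while the counting CV fell from a median of 4.03% to 2.27%. A contig of low mean that fell below 10 TPM in any library was not ranked; the part of this minimum in the order was not tested. The share of stable contigs was 2.99% in the lowest of these quartiles and 0.226% in the highest.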
